A study of Mus musculus with 6 samples.

Results

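The ubiquitin-specific proteases were followed through an RNA immunoprecipitation experiment on CPEB4, a cytoplasmic polyadenylation element binding protein, in mouse muscle stem cells. Members were taken by name: every row of the count table whose symbol begins with Usp followed by a digit, which gave 59 of 55376 rows. Of these, 55 are protease genes of the family and 4 share only the name. Usp6nl encodes a GTPase-activating protein for Rab proteins, Usp46os1 and Usp46os2 are antisense noncoding RNAs, and Usp17le-ps is a pseudogene. The members were chosen by symbol and by no measured value, but the family was singled out with results of these 6 libraries already known, so its counts describe these libraries and are no independent evidence about the family.

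The mice were C57BL/6 and 3 months old, and their muscle stem cells were sorted by flow cytometry and sequenced after SMART-seq2 amplification. RNA pulled down with an antibody to CPEB4 (CPEB4 RIP), RNA pulled down with control immunoglobulin (IgG RIP) and RNA without a pull-down (input) were each sequenced in 2 libraries. All 3 groups share strain, age and cell type, and no genotype or treatment differs between them. Nothing in the labels says whether the 2 libraries of a group came from separate mice or cell preparations, so p-values measure only the spread between these libraries. A total of 9018323 to 20843042 counts were assigned to genes per library. The replicate pairs correlated at 0.981 for CPEB4 RIP, 0.975 for input and 0.873 for IgG RIP (Pearson's r of log2 CPM, counts scaled to library size, over the 18054 genes tested), so the IgG libraries were the least alike. The 9 muscle stem cell markers were detected in all libraries and summed to 46009 to 68742 CPM. Most of the sum was Sdc4, with means of 59728 (CPEB4 RIP), 54810 (IgG RIP) and 41722 CPM (input). Over input, Sdc4 and Chrdl2 were higher in CPEB4 RIP (log2 fold changes 0.52 and 0.88, adjusted p = 0.0161 and 0.00815), while Vcam1 and Calcr were lower (-1.18 and -1.38, adjusted p = 0.00267 and 0.0089). The sum was 62875 to 68742 in CPEB4 RIP, 61051 to 62374 in IgG RIP, with 46009 to 47240 in input. Markers of red blood cells (4 globin genes) summed to 326 to 654 CPM in CPEB4 RIP, against 84.8 to 147 in IgG RIP, with 107 to 176 in input. The 3 fibro-adipogenic markers summed to 562 to 860, 263 to 545 and 203 to 391, and the 5 leukocyte markers to 47.1 to 63.2, 24.95 to 42.1 and 22.1 to 30.4, in the same order. None of these markers was at 0 in every library, and their part in the results was not tested.

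Ubiquitin is attached to proteins by an enzyme cascade and taken off again by deubiquitinases, of which the ubiquitin-specific proteases (USPs) are the most numerous family in mammals. A USP cleaves the bond between ubiquitin and its substrate, or between ubiquitins in a chain, and so can save a protein from the proteasome, change its signalling or return ubiquitin for reuse. In muscle, ubiquitin-dependent turnover is known for its place in fibre wasting and in the control of myogenic regulators. CPEB proteins bind U-rich elements in messenger RNAs and steer the length of the poly(A) tail and translation.

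Of the 59 members, 49 passed the filter on low counts and were tested, 48 protease genes and Usp6nl. The other 10 had at most 25 counts in any library: Usp17la, Usp17lb, Usp17lc, Usp17ld, Usp17le, Usp17le-ps, Usp26, Usp51, Usp46os1 and Usp46os2. The Usp17-like genes are a cluster of near-identical copies on chromosome 7, between which reads may be shared. Usp26 and the Usp17-like genes are known from the germ line.

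The family's share of all assigned counts was lowest in CPEB4 RIP. It was 0.143% and 0.136% in the CPEB4 RIP libraries, 0.202% and 0.208% in IgG RIP, with 0.236% and 0.238% in input. The group means were 0.140% ± 0.00510, 0.205% ± 0.00400 and 0.237% ± 0.00117 (SD, n = 2 libraries each). The groups did not overlap, and 2 libraries against 2 cannot reach an exact permutation p below 0.333. Usp37 alone carried a visible part of this gap: without it the mean shares were 0.130%, 0.177% and 0.198%. These are shares of each library's counts and not amounts of RNA per cell, and what lowers them in CPEB4 RIP was not tested.

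**Figure D1:**
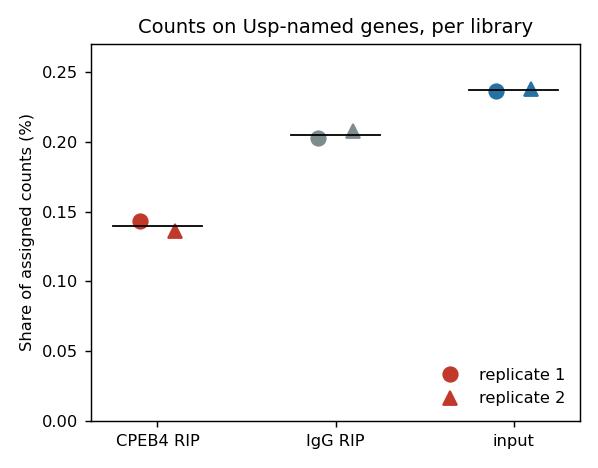
Share of assigned counts, in percent, that fell on the 59 Usp-named genes in each of the 6 libraries. Points are libraries, with circles for replicate 1 and triangles for replicate 2, and horizontal lines are group means of 0.140% (CPEB4 RIP), 0.205% (IgG RIP) and 0.237% (input). The 3 groups do not overlap.

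Set against IgG RIP, 6 members were lower in CPEB4 RIP, 1 was higher and 42 did not pass the test (edgeR's quasi-likelihood test, two-sided, adjusted p under 0.05 over all 18054 genes). The 6 lower members were Usp37, Usp15, Usp9x, Usp33, Usp22 and Usp39, and the higher one was Usp30. Lower calls made up 12.2% of the members tested, beside 3.42% of all genes tested, and higher calls made up 2.04% beside 4.79%. The median log2 fold change of the 49 members was -0.11, beside -0.07 for all genes. In 22 members both CPEB4 RIP libraries lay below both IgG RIP libraries (25.5% of all genes did so), in 11 they lay above (29.4% of all genes), and in 16 they overlapped. The median turned to the other sign without CPEB4 RIP replicate 1 (0.03), IgG RIP replicate 2 (0.07), input replicate 1 (0.03) or input replicate 2 (0.05), and without IgG RIP replicate 1 it was -0.22 beside 0.33 for all genes. The count of lower members depended on single libraries: it was 0 without either CPEB4 RIP library (beside 0.0491% and 0% of all genes) and 3 without either input library (beside 1.07% and 0.939%). Without IgG RIP replicate 1 it was 11 (20.8%, beside 13.4% of all genes), and without IgG RIP replicate 2 it was 8 (15.4%, beside 16.5%). The count of higher members was 10 (18.9%, beside 23.6%) and 9 (17.3%, beside 18.5%) without IgG RIP replicates 1 and 2, and 0 without any of the other 4 libraries. A group left with 1 library in such a fit is assumed to vary like the other groups. The main fit also shares 1 estimate of spread per gene among the 3 groups, although the IgG RIP replicates differed most. Of all genes tested, 37.03% were over 2-fold apart in IgG RIP, beside 10.04% in CPEB4 RIP and 10.09% in input. Fitting only the 4 libraries compared gave 3 lower members over IgG RIP (6.38%, beside 2.42%) and 21 over input (41.2%, beside 22.4%).

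Set against input, 10 members were lower in CPEB4 RIP, none was higher and 39 did not pass. The 10 were Usp37, Usp15, Usp33, Usp9x, Usp8, Usp4, Usp47, Usp10, Usp14 and Usp3. They made up 20.4% of the members tested, beside 4.7% of all genes called lower and 8% called higher. The DESeq2 Wald test called 2 members higher (4.08%, beside 11.1% of all genes) and 14 lower (28.6%, beside 8.13%), and in edgeR 17 members had an unadjusted p under 0.05 in either direction (34.7%, beside 28.1%). The median of the members was -0.14, beside -0.06 for all genes. Both CPEB4 RIP libraries lay below both input libraries in 24 members (37.6% of all genes) and above them in 8 (34.4% of all genes). Without CPEB4 RIP replicate 1 or 2 the count of lower members was 3 and 1 (beside 0.562% and 0.102% of all genes), and without input replicate 1 or 2 it was 5 and 4 (beside 1.32% and 1.02%). Without IgG RIP replicate 1 or 2 it was 23 and 21 (43.4% and 40.4%, beside 18.1% and 17.9% of all genes), and in those fits 5 and 5 members were higher (9.43% and 9.62%, beside 20.2% and 19.7%). Usp37, Usp15, Usp9x and Usp33 were called lower in both comparisons. Both use the same CPEB4 RIP libraries, so the second call is no independent support for the first. The share of all genes called lower in both was not taken.

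Between IgG RIP and input no member passed the test in either direction, as was true of all genes (0% and 0% called). At an unadjusted p under 0.05 there were 9 members (18.4%, beside 14.1% of all genes), and the DESeq2 Wald test called 2 lower (4.08%, beside 1.55%) and 0 higher (beside 2.37%). Both IgG RIP libraries lay below both input libraries in 16 members (20.7% of all genes) and above them in 6 (21.4% of all genes), and they overlapped in 27. Without IgG RIP replicate 1 the fit called 6 members higher (11.3%, beside 11.0% of all genes) and 11 lower (20.8%, beside 20.9%). Without IgG RIP replicate 2 it called 8 lower (15.4%, beside 5.36%) and 0 higher (beside 2.87%).

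**Figure D2:**
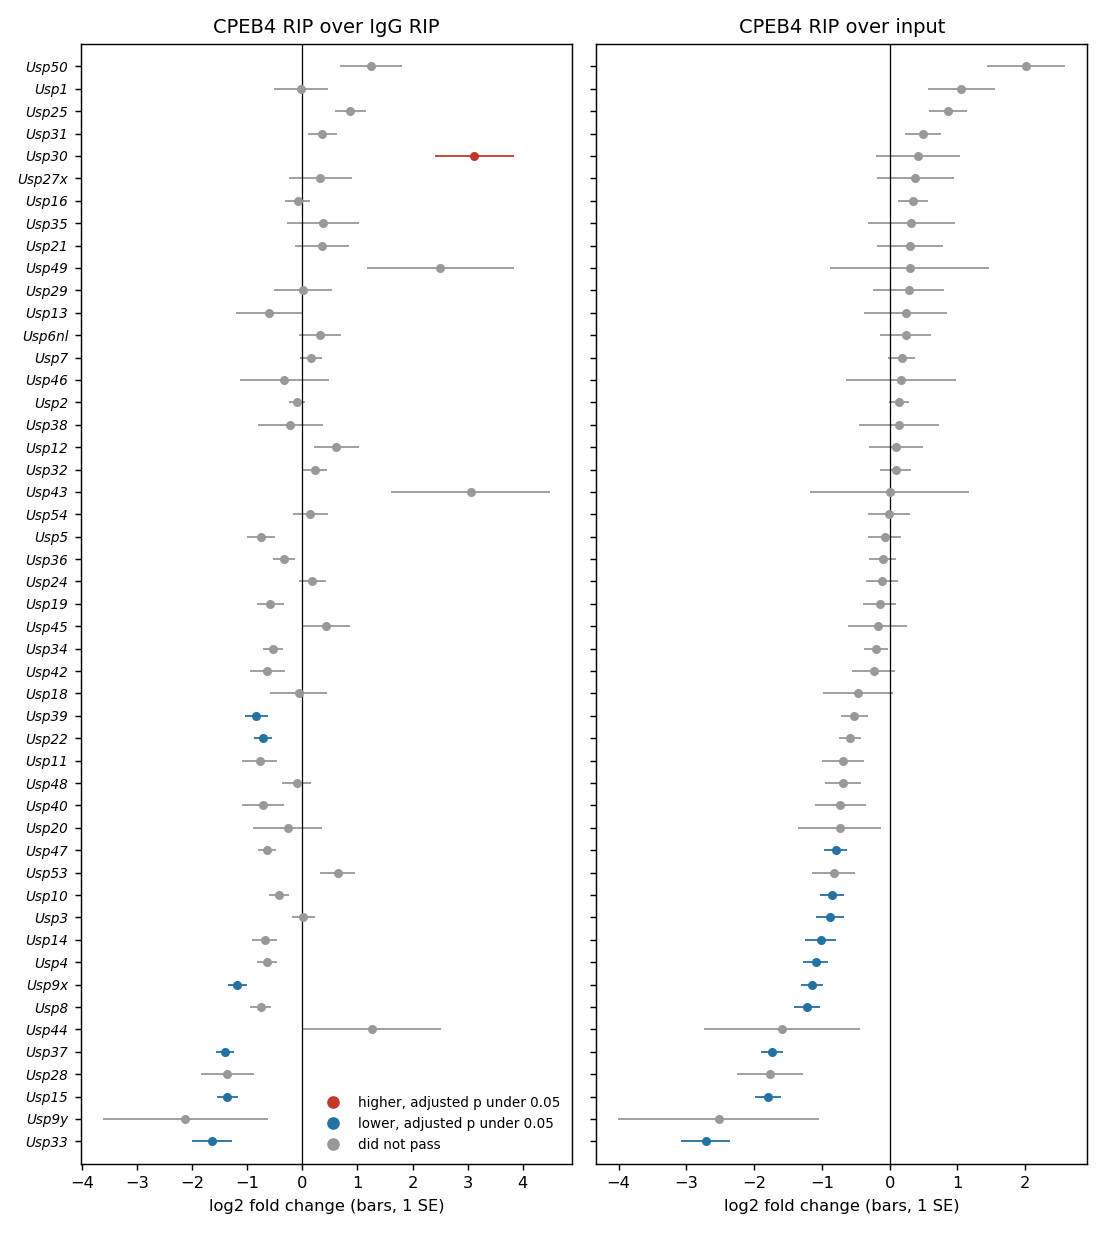
Log2 fold change of the 49 members tested, CPEB4 RIP over IgG RIP (left) and over input (right), ordered by the second. Bars are 1 standard error, blue marks the 6 and 10 members called lower, red marks Usp30 as the 1 called higher, and grey marks members that did not pass. Wide bars belong to members of few counts, such as Usp43, Usp49, Usp44 and Usp9y.

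The calls fell among the more abundant members. Of the 23 members with a mean of at least 20 CPM over the 6 libraries, 6 (26.1%) were lower than in IgG RIP and 10 (43.5%) lower than in input, beside 8.63% and 12.1% of the 5449 genes at that level. None of these 23 was called higher, beside 11.9% and 19.9% of those genes. Among the 26 members under that level the only call was Usp30 (3.85% higher than in IgG RIP, beside 1.71% of the 12605 genes there).

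Among the tested members, 9 were grouped under nuclear stability and DNA repair, a label that does not cover all that each of them does. Of these, 1 was lower than in IgG RIP (beside 3.42% of all genes) and 3 lower than in input (beside 4.7%). The role groups here and below are too small to compare with such shares. Usp37 (chromosome 1, 74435510 to 74544286 on GRCm38), which opposes degradation of cyclin A and acts in DNA replication, had 105 and 112 CPM in CPEB4 RIP, against 271 and 305 in IgG RIP, with 324 and 395 in input. The CPEB4 RIP libraries lay well below the other 4. Usp37 was 2.66-fold lower than in IgG RIP (log2 fold change -1.41, SE 0.16, adjusted p = 0.00789) and 3.32-fold lower than in input (-1.73, SE 0.16, adjusted p = 0.00201), while IgG RIP and input differed by -0.32 (adjusted p = 0.416). The gene model overlaps Cnot9, a subunit of the CCR4-NOT deadenylase, which did not pass in either comparison (-0.33, adjusted p = 0.355 over IgG RIP and -0.16, adjusted p = 0.665 over input). Usp47, linked to base excision repair, had 74.1 and 72.0 CPM in CPEB4 RIP, against 124 and 104 in IgG RIP, with 118 and 135 in input, and was 1.74-fold lower than in input (adjusted p = 0.0221), with an adjusted p of 0.0582 against IgG RIP. Usp10, which binds the stress granule protein G3BP, had 41.3 and 35.7, 48.3 and 55.5, and 71.1 and 68.0 in the same order. It was 1.81-fold lower than in input (adjusted p = 0.0234) and did not pass against IgG RIP (adjusted p = 0.18). Usp7, the protease of MDM2 and many nuclear proteins and a relative of Usp47, passed neither test, with 82.9 and 86.3 CPM in CPEB4 RIP, against 63.1 and 87.8 in IgG RIP, with 70.7 and 79.1 in input, with log2 fold changes of 0.16 (SE 0.20) and 0.18 (SE 0.20).

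USP4, USP11 and USP15 form a branch of related proteases known from TGF-beta signalling and the spliceosome. Of its 3 genes, 1 was lower than in IgG RIP (beside 3.42% of all genes) and 2 lower than in input (beside 4.7%). Usp15 (chromosome 10, 123105006 to 123197281) had 34.5 and 32.4 CPM in CPEB4 RIP, against 78.2 and 93.6 in IgG RIP, with 104 and 129 in input. The CPEB4 RIP libraries were below all others, by 2.57-fold against IgG RIP (log2 fold change -1.36, SE 0.19, adjusted p = 0.011) and 3.48-fold against input (-1.80, SE 0.19, adjusted p = 0.00267). Usp4 had 28.3 and 28.4 CPM in CPEB4 RIP, against 47.2 and 41.7 in IgG RIP, with 62.8 and 58.1 in input, with no overlap between groups. It was 2.13-fold lower than in input (adjusted p = 0.0102), and its adjusted p against IgG RIP was 0.0703. Usp11 had 8.12 and 8.88 CPM in CPEB4 RIP, against 13.4 and 15.7 in IgG RIP, with 16.5 and 10.9 in input, and it passed neither test (adjusted p = 0.167 and 0.203).

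Members that act on membranes, receptors and organelles went both ways. Usp33 (chromosome 3, 152346184 to 152393617), which deubiquitinates receptors and centrosome proteins, had 5.80 and 9.98 CPM in CPEB4 RIP, against 31.8 and 18.0 in IgG RIP, with 52.7 and 52.1 in input. IgG RIP lay between the other groups, with its replicates well apart. Usp33 was 6.57-fold lower than in input (log2 fold change -2.72, SE 0.37, adjusted p = 0.005) and 3.11-fold lower than in IgG RIP (-1.64, SE 0.36, adjusted p = 0.0363). Among the members called lower, this difference from input was the largest fold in either comparison. Its close relative Usp20 was scarce, at 1.21 to 3.36 CPM in all libraries, and passed no test. Usp9x (chromosome X, 13070982 to 13173328), a protease of endosomal and signalling proteins, had 59.7 and 50.6 CPM in CPEB4 RIP, against 121 and 129 in IgG RIP, with 115 and 130 in input. Here IgG RIP and input overlapped (log2 fold change 0.03, SE 0.16), and CPEB4 RIP was 2.26-fold below the first (adjusted p = 0.0118) and 2.21-fold below the second (adjusted p = 0.00654). Its Y-linked copy Usp9y had at most 1.03 CPM. Usp8, which sorts receptors at endosomes, had 30.1 and 28.5 CPM in CPEB4 RIP, against 45.7 and 53.1 in IgG RIP, with 63.2 and 73.6 in input. The groups did not overlap, and Usp8 was 2.33-fold lower than in input (adjusted p = 0.00786) with an adjusted p of 0.0515 against IgG RIP.

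Usp30 (chromosome 5, 114100299 to 114123510), the protease of the outer mitochondrial membrane that opposes mitophagy, was the only member called higher in CPEB4 RIP. It had 3.40 and 2.84 CPM in CPEB4 RIP, against 0.320 and 0.378 in IgG RIP, with 2.99 and 1.64 in input. CPEB4 RIP overlapped input, and the IgG RIP libraries were the ones that stood apart. The log2 fold change over IgG RIP was 3.12 (SE 0.72, adjusted p = 0.0414), and over input it was 0.42 (SE 0.62, adjusted p = 0.7). This rests on few counts, 41 and 54 in CPEB4 RIP against 3 and 5 in IgG RIP. The ratio of summed counts was 8.64 after scaling, with an exact 95% interval of 4.21 to 20.6. That interval takes every read as independent, so it covers neither amplified copies nor the spread between libraries. It comes from the same counts as the call and adds no support to it. The call was lost in 12 of 20 alternative fits, among them those without a CPEB4 RIP or an input library.

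Usp2, also placed with this group and known for circadian and cyclin D1 regulation, had 156 and 147 CPM in CPEB4 RIP, against 162 and 161 in IgG RIP, with 145 and 130 in input. Its log2 fold changes were -0.09 (SE 0.14) over IgG RIP and 0.14 (SE 0.14) over input. Of the 8 members of the membrane group, 1 was higher and 2 lower than in IgG RIP (beside 4.79% and 3.42% of all genes). Against input, 3 were lower (beside 4.7%).

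Among the histone and chromatin proteases 1 of 7 was lower in each comparison (beside 3.42% and 4.7% of all genes), and not the same one. Usp22, the deubiquitinase of the SAGA coactivator, had 140 and 131 CPM in CPEB4 RIP, against 237 and 209 in IgG RIP, with 187 and 220 in input. Both CPEB4 RIP libraries were below the other 4. Usp22 was 1.64-fold lower than in IgG RIP (adjusted p = 0.0368), and its adjusted p against input was 0.0506. Reads may be shared with its close relatives Usp27x and Usp51, which had at most 2.63 CPM and 5 counts. Usp3, which removes ubiquitin from histones, had 25.4 and 31.2 CPM in CPEB4 RIP, against 29.4 and 26.5 in IgG RIP, with 50.9 and 53.2 in input. Both pull-downs lay below input and overlapped each other. The CPEB4 RIP libraries were 1.84-fold lower than input (adjusted p = 0.0301) and at 1.01-fold of IgG RIP (log2 fold change 0.02, SE 0.20), and the IgG RIP libraries were 1.86-fold lower than input without passing (adjusted p = 0.2). Usp16, another histone protease and among the most abundant members, had 188 and 212, 167 and 257, and 144 and 171 CPM in CPEB4 RIP, IgG RIP and input, and passed no test.

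Of the 3 genes for recycling of ubiquitin, Usp14 was lower than input (beside 4.7% of all genes) and Usp5 and Usp13 passed no test. Usp14, the USP bound to the proteasome, had 35.1 and 42.5 CPM in CPEB4 RIP, against 54.3 and 70.5 in IgG RIP, with 67.9 and 89.4 in input. It was 2.02-fold lower than in input (adjusted p = 0.0266), with an adjusted p of 0.104 against IgG RIP. Its gene model overlaps that of Thoc1, an mRNA export factor, which was lower in both comparisons (log2 fold change -1.34, adjusted p = 0.02 over IgG RIP, and -1.99, adjusted p = 0.00377 over input). The sources used here do not state whether counting used strand, so reads of these 2 genes may not be separated. Usp5, which disassembles free ubiquitin chains, had 14.6 and 14.0 CPM in CPEB4 RIP, against 26.98 and 21.1 in IgG RIP, with 15.3 and 14.8 in input. Only the IgG RIP libraries stood apart (adjusted p = 0.106 for CPEB4 RIP against IgG RIP).

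Of the 4 members without protease activity or of uncertain activity, Usp39 was called lower than in IgG RIP (beside 3.42% of all genes). None was called against input (beside 4.7% lower and 8% higher). Usp39, a splicing factor that lacks the catalytic residues, had 41.1 and 43.8 CPM in CPEB4 RIP, against 64.8 and 86.5 in IgG RIP, with 56.1 and 66.0 in input. It was 1.78-fold lower than in IgG RIP (adjusted p = 0.0484) and did not pass against input (adjusted p = 0.143). Usp50 had the opposite pattern without passing: 21.5 and 23.1 CPM in CPEB4 RIP, against 4.58 and 14.1 in IgG RIP, with 3.43 and 7.73 in input. Its log2 fold change was 2.01 over input (SE 0.58, adjusted p = 0.0614) and 1.24 over IgG RIP (SE 0.56, adjusted p = 0.205). Usp50 starts at 126761050 on chromosome 2, next to Usp8, which ends at 126759314, and the 2 neighbours had log2 fold changes of opposite sign in both comparisons.

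No member of the immune, UAF1-partnered or germ line groups passed a test. Of all genes, 3.42% were lower and 4.79% higher than in IgG RIP, and 4.7% lower and 8% higher than in input. Usp25 and Usp28, close relatives of each other, had opposite signs. Usp25, a regulator of innate immune signalling, had 34.9 and 31.8 CPM in CPEB4 RIP, against 13.8 and 22.7 in IgG RIP, with 17.7 and 18.9 in input, with log2 fold changes of 0.87 in both comparisons (adjusted p = 0.0994 and 0.0875). Usp28, a protease of MYC, had 5.72 and 7.25, 8.32 and 25, and 22.2 and 22.1 CPM, with log2 fold changes of -1.36 over IgG RIP and -1.77 over input (adjusted p = 0.124 and 0.0543). Of the UAF1 partners, Usp1 and Usp46 varied between the IgG RIP libraries, where Usp1 had 8.96 and 28.9 CPM and Usp46 had 1.07 and 7.78, while Usp12 had 5.97 and 4.002. In IgG RIP, 8 of the 49 members (16.3%, beside 37.03% of all genes tested) differed by more than 2-fold between replicates. In CPEB4 RIP 3 did so (6.12%, beside 10.04%) and in input 1 (2.04%, beside 10.09%).

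**Figure D3:**
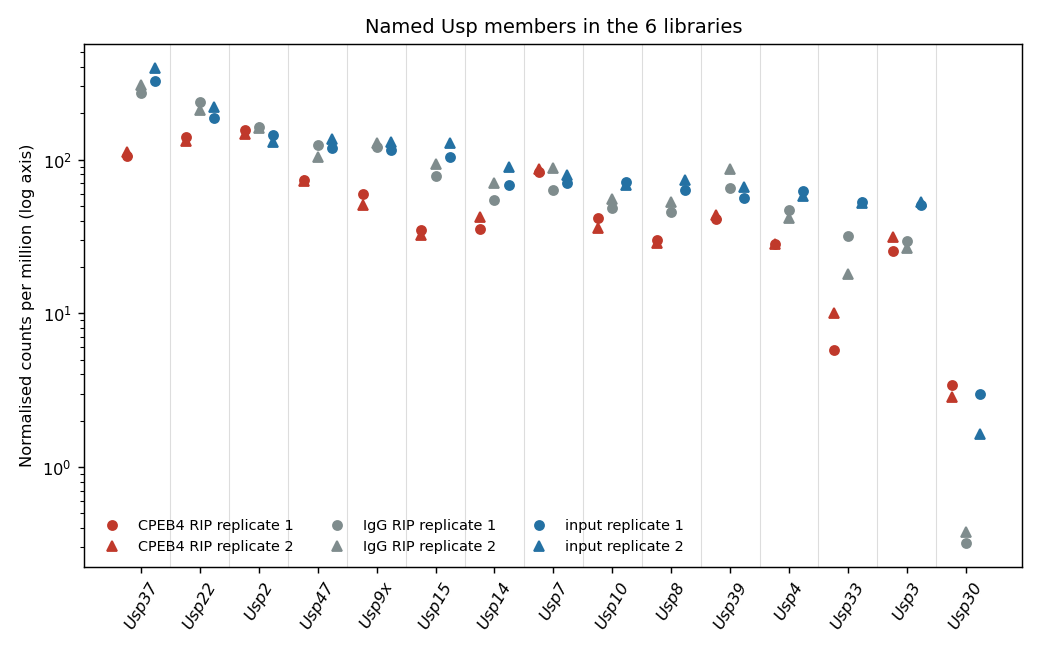
Normalised CPM (log axis) of the 15 members described by the naming rule, in each of the 6 libraries. Red points are CPEB4 RIP, grey IgG RIP and blue input, with circles for replicate 1 and triangles for replicate 2. CPEB4 RIP lies below all 4 other libraries for Usp37, Usp15, Usp33, Usp9x, Usp22, Usp39, Usp8, Usp4, Usp47, Usp10 and Usp14. For Usp3, Usp2 and Usp7 it does not. For Usp30 the IgG RIP libraries, at 0.320 and 0.378, lie below the other 4.

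Levels of different genes were compared per length, in deposited FPKM (fragments per base of gene model and library size). In input the most abundant member was Usp22 at 29.8 ± 3.07 FPKM (SD, n = 2), followed by Usp37 at 23.2 ± 2.96, Usp2 at 20.5 ± 1.79, Usp39 at 17.9 ± 1.82, Usp16 at 11.9 ± 1.30 and Usp8 at 11.7 ± 1.11. Usp37 and Usp2 changed order between the 2 input libraries (21.2 and 25.3 against 21.8 and 19.2 FPKM). Usp2 lay above Usp39, and Usp16 above Usp8, in both libraries. The spreads of each of these pairs overlapped, and 2 libraries do not settle their order. Usp7 followed at 6.91 ± 0.459. The median member tested stood at 2.08 FPKM in input, beside 1.24 for all genes tested.

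In CPEB4 RIP, Usp2 ranked 1 of 59 at 22.6 ± 1.42 FPKM and Usp22 ranked 2 at 19.97 ± 1.31, with spreads that overlapped. Usp2 lay above Usp22 in both libraries (23.7 and 21.6 against 20.9 and 19.0 FPKM), but 2 libraries do not settle their order. Usp37 ranked 2 in input and 6 in CPEB4 RIP, at 7.03 ± 0.184 FPKM. Usp15 ranked 13 and 27, and Usp33 16 and 37, from 3.88 ± 0.0828 FPKM in input to 0.585 ± 0.209 in CPEB4 RIP. Usp50 moved the other way, from rank 29 to 7.

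The members were longer than most genes tested, a property the naming rule did not use. Gene model lengths were recovered from the deposited counts and FPKM, whose ratio gave whole numbers of bases. The 49 members tested had a median of 7680 bases and ranged from 2445 (Usp39) to 18453 (Usp34), beside a median of 3841 for all genes tested. Of the 49, 45 were longer than that median and 28 longer than the upper quartile of 6325 bases. Over all genes tested, log2 fold change fell with log2 length (Pearson's r across genes of -0.15 over IgG RIP and -0.22 over input), and over the members r was -0.25 and -0.30. Between IgG RIP and input r was -0.06 for all genes and 0.00 for the members. Genes are not independent replicates, and all points share the same 6 libraries.

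The longest called members were Usp15 (16599 bases), Usp9x (15051), Usp47 (13755) and Usp37 (11081), and the shortest were Usp39 (2445), Usp8 (4193) and Usp22 (4886). Of the longest members tested, Usp34, of 18453 bases, had log2 fold changes of -0.54 and -0.20 and passed neither test, and Usp29, of 18078 bases and at most 5.22 CPM, had 0.01 (SE 0.52) and 0.28 (SE 0.52). Among the 17 members both above the upper quartile of length and at 20 CPM or more, 4 (23.5%) were lower than in IgG RIP and 9 (52.9%) lower than in input, beside 10.9% and 15.8% of the 1786 genes in the same range.

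**Figure D4:**
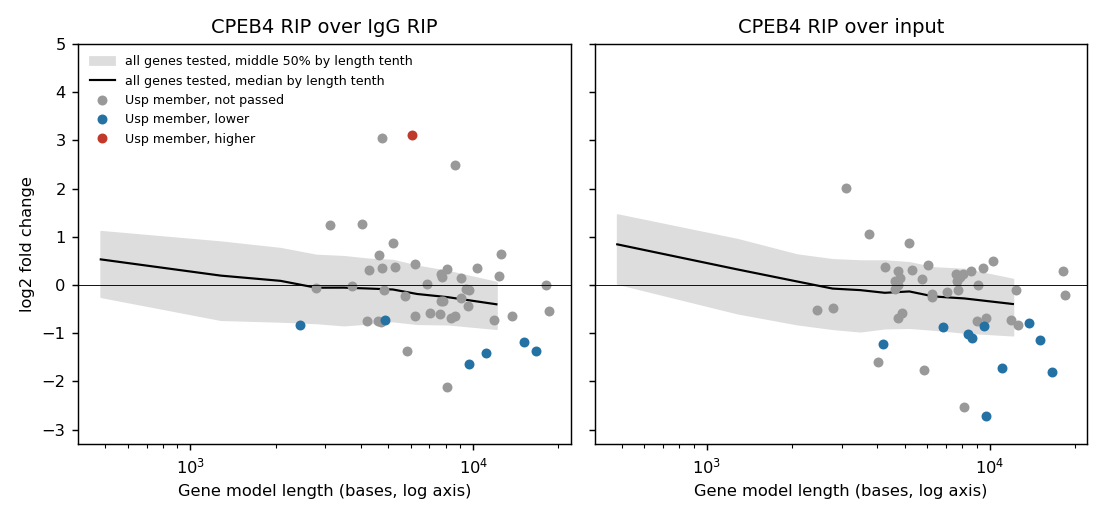
Log2 fold change against gene model length in bases (log axis), CPEB4 RIP over IgG RIP (left) and over input (right). The black line and grey band are the median and middle 50% of all 18054 genes in 10 bins of length, and points are the 49 members, blue where called lower and red where called higher. The median falls with length in both panels, and Usp37 and Usp33 lie below the band in both.

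With each library's trend with length taken out before the fit, most members called without it did not pass. With a robust smooth of length, added after the data were seen, 1 member was lower than in IgG RIP (Usp37, log2 fold change -1.13, adjusted p = 0.0415) and 4 were lower than in input, Usp33 (-2.37, adjusted p = 0.0148), Usp37 (-1.35, adjusted p = 0.0137), Usp15 (-1.31, adjusted p = 0.0183) and Usp8 (-1.09, adjusted p = 0.0321). In that fit 1.09% and 2.25% of all genes were called lower, and the medians over input turned sign, from -0.14 to 0.10 for the members and from -0.06 to 0.01 for all genes. The median offset of the smooth (log2) was 0.04 and -0.04 in the CPEB4 RIP libraries, with 0.12 and 0.13 in input. The turn of sign therefore includes a general shift besides the trend with length. Over IgG RIP, some members lost their call at a log2 fold change near or beyond that without the smooth: Usp22 had -0.72 (adjusted p = 0.0707), Usp39 -0.94 (adjusted p = 0.0871) and Usp30 3.18 (adjusted p = 0.0559). Others had a smaller one, such as Usp15 at -0.96 (adjusted p = 0.0624) and Usp9x at -0.81 (adjusted p = 0.065). With an ordinary smooth, 0 members were lower than in IgG RIP, where no gene at all was called, and 1 was lower than in input. The 13 called members kept the sign of their log2 fold changes in all 20 alternatives wherever they were called. Many calls were lost in a good part of these 20. Over IgG RIP, calls were lost in 5 (Usp37), 6 (Usp15 and Usp9x), 11 (Usp33), 12 (Usp39 and Usp30) and 13 (Usp22). Over input, they were lost in 5 (Usp8), 6 (Usp9x), 8 (Usp4), 10 (Usp47, Usp10 and Usp14) and 11 (Usp3). Usp33 against input was the only call kept in all 20, with log2 fold changes from -3.11 to -1.63 and a highest adjusted p of 0.0449. Usp37 against input lost its call in 2 and Usp15 in 2, with highest adjusted p of 0.0519 and 0.0682.

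Of 32 deubiquitinases of other folds that were tested, 6 were higher (18.8%, beside 4.79% of all genes) and 2 lower (6.25%, beside 3.42%) than in IgG RIP. Against input, 5 were higher (15.6%, beside 8%) and 2 lower (6.25%, beside 4.7%). The difference between these genes and the Usp members was not tested. The Josephin proteases Josd1 and Josd2 were higher than in IgG RIP (log2 fold changes 0.90 and 1.13, adjusted p = 0.047 and 0.0218), and Josd1 also than in input (1.19, adjusted p = 0.0143). The ubiquitin hydrolase Uchl3 was higher than in IgG RIP (0.97, adjusted p = 0.042). Of the JAMM metalloproteases, Mpnd was higher in both comparisons (1.62, adjusted p = 0.025 and 1.87, adjusted p = 0.0106), Brcc3 was higher than in IgG RIP (0.88, adjusted p = 0.0469), Psmd14 of the proteasome was lower than in IgG RIP (-0.78, adjusted p = 0.0441) and Mysm1 was lower in both (-0.85, adjusted p = 0.0359 and -0.77, adjusted p = 0.0344). Otud3 was called higher than in IgG RIP on 0 and 1 counts in IgG RIP, so its fold has no usable size. Over input, the OTU proteases Otud1 (1.85, adjusted p = 0.0368) and Otulin (1.67, adjusted p = 0.0148) and Mindy2 (1.90, adjusted p = 0.00479) were higher, and Zup1 (-1.55, adjusted p = 0.0193) was lower. Of 3 genes for proteins of the USP fold with other symbols, which are not counted above, 0 were called against IgG RIP and 1 was lower than in input, the SUMO protease Uspl1 (-1.16, adjusted p = 0.0246).

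Among 14 known partners of USPs, 2 were lower and 1 higher than in IgG RIP, beside 3.42% and 4.79% of all genes. Against input, 4 were lower and 2 higher, beside 4.7% and 8%. G3bp2, a stress granule protein that binds USP10, was lower in both comparisons (log2 fold change -1.29, adjusted p = 0.00969 and -1.09, adjusted p = 0.00807), as was Gmps, which binds USP7 (-0.99, adjusted p = 0.0297 and -1.20, adjusted p = 0.0106). Wdr48, which encodes UAF1, and Wdr20 were lower than in input (-1.01, adjusted p = 0.0323 and -1.41, adjusted p = 0.0285). Eny2, of the SAGA module that holds USP22, was higher than in input (0.68, adjusted p = 0.0365), and Atxn7l3b, which binds it, was higher in both comparisons (0.70, adjusted p = 0.0343 and 0.96, adjusted p = 0.00823). Among genes for ubiquitin, its relatives and E1 enzymes, Ubb was lower than in IgG RIP (-0.71, adjusted p = 0.0212) and did not pass against input (adjusted p = 0.168). Rps27a, which encodes ubiquitin fused to a ribosomal protein, was higher in both comparisons (0.80, adjusted p = 0.0193 and 1.44, adjusted p = 0.0022), and Isg15 was higher than in input (1.41, adjusted p = 0.0279).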

How the data were processed

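The authors aligned reads with HISAT2 to mm10 and counted them with featureCounts, per the submitters' processing notes. The sources used here state no version, annotation or strand setting. The deposited tables hold raw counts per gene and FPKM. The length of each gene model was recovered from the deposited count and FPKM (45787 genes); what the FPKM total counts is not given.

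Counts were tested in R 4.3.3 with edgeR 4.0.16: filterByExpr (minimum count 10, minimum total 15), TMM scaling and a quasi-likelihood fit with group alone over all 6 libraries (3 residual degrees of freedom). Tests were two-sided with Benjamini-Hochberg adjustment over 18054 genes and a threshold of 0.05. CPM carry the TMM factors. Groups came from the titles. The members, role groups and gene lists were chosen with earlier results of these data known. Named were members called in any comparison, the 3 most abundant in input FPKM, Usp7, Usp14, Usp22 and Usp30, and up to 4 called genes per list; all other members named with values were chosen after these were seen. All 59 members matched a RefSeq table (GRCm38.p6), from which positions come. Data were simulated for CPEB4 RIP against IgG RIP (16589 genes), with 100 genes changed 2-fold and 100 changed 4-fold. The test recovered 7% of 2-fold and 28% of 4-fold changes, with 7.89% of its 38 calls false. Recovery depends on how many genes change, so these rates need not hold for the data. Alternatives were DESeq2 1.42.0 scaling and Wald test, library size alone, no mitochondrial genes, other filters, 4 libraries only, a replicate block, length offsets (loess span 0.3), limma 3.58.1 on log2(FPKM + 1) or log2(FPKM + 0.1), and each library left out. Reads carry no molecular identifiers here, so the interval for Usp30 would count amplified copies as separate reads. One result of the list of ubiquitin genes is not reported here.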

Additional observations from a re-analysis of the deposited data

How the results depend on the processing

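Counts of members called, here against 1 higher and 6 lower over IgG RIP and 0 higher and 10 lower over input, changed as follows. The DESeq2 Wald test gave 2 higher and 12 lower over IgG RIP (4.08% and 24.5%, beside 8.54% and 7.48% of all genes). It gave 2 higher over input (beside 11.1%) and 2 lower for IgG RIP over input (beside 1.55%). The length offset gave 0 higher and 0 lower over IgG RIP (0% and 0% of all genes) and 1 lower over input (beside 0.731%). Its robust form (added after seeing the data) gave 0 higher, 1 lower and 4 lower, beside 1.88%, 1.09% and 2.25%. Its form with the replicate block gave 0 higher, 0 lower, and 1 higher and 3 lower, beside 0.554%, 0.299%, 6.72% and 1.58%. Both log2(FPKM + 1) and log2(FPKM + 0.1) gave 0 higher over IgG RIP, beside 7.27% and 6.24% of all genes. Both gave 3 lower over IgG RIP (6.12%, beside 2.23% and 2.17%) and 6 lower over input (12.2%, beside 4.21% and 3.67%). Without a filter, log2(FPKM + 1) gave 0 higher, 0 lower and 4 lower, beside 0.605%, 0.0895% and 0.629%. A mean count of at least 20 gave 11 lower over IgG RIP (23.9%, beside 8.35% of all genes) and 1 higher over input (2.17%, beside 10.6%). No low-count filter gave 3 higher in each CPEB4 RIP comparison (5.08%, beside 3.29% over IgG RIP and 4.51% over input). It gave 2 lower for IgG RIP over input (3.39%, beside 0.371%). Fitting only the 4 libraries compared gave 0 higher (beside 3.86% of all genes) and 3 lower (6.38%, beside 2.42%) over IgG RIP. Over input it gave 3 higher (5.88%, beside 20.9%) and 21 lower (41.2%, beside 22.4%). The labels do not say whether equal replicate numbers share a preparation. Replicate differences correlated at 0.13 (CPEB4 RIP and IgG RIP), -0.02 (CPEB4 RIP and input) and 0.07 (IgG RIP and input). Such values cannot decide it, since a weak shared effect can also give low correlations. The replicate block gave 0 higher and 9 lower over IgG RIP (beside 5.9% and 4.34% of all genes). It gave 1 higher and 12 lower over input (beside 9.16% and 5.33%). For IgG RIP over input it gave 0 and 0 (beside 0.0997% and 0.0388%). Leaving out 1 library each gave 0 to 10 higher and 0 to 11 lower over IgG RIP, 0 to 5 higher and 1 to 23 lower over input, and 0 to 6 higher and 0 to 11 lower for IgG RIP over input. With DESeq2 size factors, library size alone or without mitochondrial genes, each count stayed within 1.5 times its value. Depth limits the scarce members: the log2 fold changes of Usp43, Usp44, Usp49 and Usp9y against the CPEB4 RIP libraries had SEs of 1.15 to 1.49.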
